A study of Mus musculus with 2 samples.

Results

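The NMDA receptor subunit genes of mouse are Grin1, Grin2a, Grin2b, Grin2c, Grin2d, Grin3a and Grin3b. These 7 genes were chosen by name, through the symbols of their Ensembl identifiers, and all 7 were found among the 43346 Ensembl genes of the tables. They were read in midbrain tissue of B6NCrl mice at 0 days of age, as gene and transcript levels and as shares of splice forms. Total RNA was sequenced from 2 animals, pup 1 and pup 3, with 1 midbrain and 1 library per animal, and no treatment or second genotype is named in the labels. The labels name separate pups but give both the same donor identifier, so the spread between the 2 values is all the error that can be given.

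NMDA receptors are glutamate-gated cation channels that pass calcium and are blocked by magnesium at resting membrane potential. Each channel needs GluN1, the product of Grin1, which binds the co-agonists glycine or D-serine, and pairs it with GluN2 subunits, which bind glutamate, or with GluN3 subunits, which bind glycine. In rodent brain, Grin2b and Grin2d are known as the GluN2 genes of embryonic and newborn neurons, Grin2a and Grin2c as genes that gain expression after birth, and Grin3a as a gene of early postnatal life whose subunit lowers calcium entry. GluN1 itself is made in 8 coding splice forms, which differ by the N1 cassette in the extracellular domain, the C1 cassette in the tail, and the end of the tail, called C2 or C2′.

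The variable pieces of Grin1 define the splice shares, and so their sequences are shown first, read from GENCODE M21 transcripts (GRCm38, the assembly also called mm10). All lie on the minus strand. Capitals mark the piece itself and lower case the 24 bases of the neighbouring spliced exon on each side, or before it alone for the tail ends. N1 (exon 4 of 21 in the longest form, 63 bases, 21 codons) is at chr2:25311343-25311405. C1 (exon 20 of 21, 111 bases, 37 codons) is at chr2:25294438-25294548.
Grin1 N1 cassette: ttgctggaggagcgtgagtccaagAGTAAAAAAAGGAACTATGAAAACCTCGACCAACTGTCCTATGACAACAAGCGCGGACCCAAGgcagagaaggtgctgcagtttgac
Grin1 C1 cassette: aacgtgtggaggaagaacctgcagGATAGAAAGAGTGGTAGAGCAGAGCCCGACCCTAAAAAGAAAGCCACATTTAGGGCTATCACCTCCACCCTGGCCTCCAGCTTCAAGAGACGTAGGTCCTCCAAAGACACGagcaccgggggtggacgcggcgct

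The tail end depends on where the last exon begins. In the long last exon (1304 bases) the tail ends in C2, 38 codons at chr2:25292371-25292484. In the short one (948 bases), which begins 356 bases further on, it ends in C2′, 22 codons at chr2:25292063-25292128, whose last residues are known to bind PDZ domains. Both are drawn here as they join the exon before C1, without C1.
Grin1 C2 coding end: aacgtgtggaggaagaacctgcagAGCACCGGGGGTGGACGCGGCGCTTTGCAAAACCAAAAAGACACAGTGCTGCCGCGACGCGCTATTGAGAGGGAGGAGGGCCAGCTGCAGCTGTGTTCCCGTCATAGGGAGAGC
Grin1 C2′ coding end: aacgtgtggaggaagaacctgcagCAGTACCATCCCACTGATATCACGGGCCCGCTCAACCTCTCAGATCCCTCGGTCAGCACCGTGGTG

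**Figure D1:**
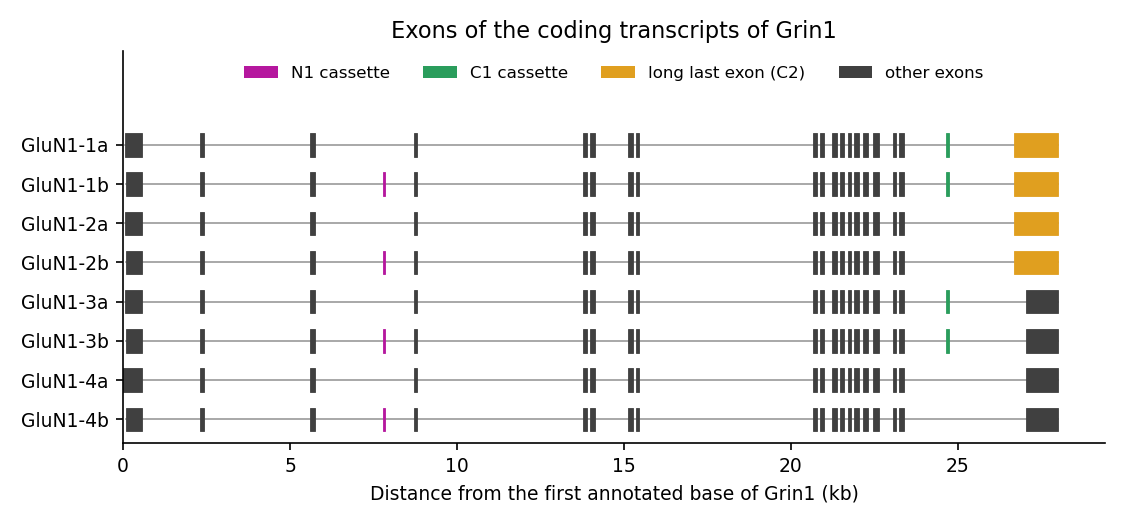
Exons of the 8 coding transcripts of Grin1, drawn to scale by distance in kb from the first annotated base along the transcribed strand, with 1 line per form. Magenta marks the N1 cassette, green the C1 cassette and orange the long last exon that carries C2; forms GluN1-3 and GluN1-4 have the short last exon and forms ending in b have N1.

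The libraries held 36934868 summed expected counts in pup 1 and 40769103 in pup 3. Levels are given as TPM, the deposited measure of abundance per unit of transcript length. The label was checked against the midbrain markers En1, En2, Otx2 and Tcf7l2, of which 3 of 4 reached 1 TPM in each pup. So did 62.1% of all protein-coding genes. Among markers of other regions, 5 of 8 for forebrain, 6 of 6 for hypothalamus and 4 of 6 for cerebellum did too. This count therefore does not single out midbrain. The midbrain markers summed to 705 TPM in pup 1 and 786 in pup 3. Tcf7l2, which the thalamus also expresses, made up most of that sum, at 645 TPM in pup 1 and 726 in pup 3, while Otx2 averaged 50.7, En1 8.21 and En2 0.81 TPM. Of the 4 Hox markers of hindbrain and spinal cord none reached 1 TPM, and 2 had no count in either pup. Forebrain markers summed to 25.2 TPM in pup 1 and 46.9 in pup 3, and hypothalamic markers to 145 and 322 TPM in the same order, so the libraries stood apart in these sums. Avp made up most of the hypothalamic sum, at 124 TPM in pup 1 and 270 in pup 3, though every marker of that list was higher in pup 3. Of the forebrain list, Dlx1 was at 8.97 and 21.8 TPM, while Neurod6 alone was not higher in pup 3, at 8.73 and 8.55. Neuron markers summed to 3783 TPM in pup 1 and 3650 in pup 3. In tissue RNA, fewer cells of a type and less RNA per cell cannot be told apart.

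Grin1, Grin3a and Grin2b were the abundant NMDA receptor genes of the newborn midbrain, and Grin2d, Grin2a, Grin2c and Grin3b were at a lower level. A level of 1 TPM was reached in each pup by 5 of the 7, all but Grin2c and Grin3b, and by 62.1% of all protein-coding genes in the tables. The obligatory subunit gene Grin1 (ENSMUSG00000026959.9, chr2:25291181-25319187, minus strand) was at 61.4 TPM in pup 1 and 61.1 TPM in pup 3, averaging 61.2 ± 0.184 (SD, n = 2). It had 5104 expected counts in pup 1 and 5336 in pup 3, and was the closest of the 7 between the pups on the log2 scale. Among 21473 protein-coding genes Grin1 ranked 2777 by mean TPM, the highest place of the family.

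Of the GluN2 genes, Grin2b led. Grin2b (ENSMUSG00000030209.10, chr6:135713233-136173511, minus strand), which encodes the subunit of slow currents in young neurons, was at 25.8 TPM in pup 1 and 29.3 TPM in pup 3, averaging 27.5 ± 2.52 (SD, n = 2). Grin2d (ENSMUSG00000002771.10, chr7:45831883-45878378, minus strand), whose subunit gives very slow currents weakly blocked by magnesium, was at 5.56 TPM in pup 1 and 6.49 TPM in pup 3, averaging 6.03 ± 0.658 (SD, n = 2). Both genes were thus present in each pup, Grin2b at several times the level of Grin2d.

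The GluN2 genes known for later expression were lower. Grin2a (ENSMUSG00000059003.8, chr16:9567898-9995560, minus strand), which encodes the subunit of fast currents, was at 2.76 TPM in pup 1 and 4.49 TPM in pup 3, averaging 3.63 ± 1.22 (SD, n = 2), with 131 counts in the first and 216 in the second library. Grin2c (ENSMUSG00000020734.9, chr11:115249169-115267243, minus strand), best known from cerebellar granule cells, was at 0.64 TPM in pup 1 and 0.50 TPM in pup 3, averaging 0.57 ± 0.099 (SD, n = 2), on 62 and 54 counts. Grin2a was the member with the largest relative spread among those above 1 TPM, and for both genes the few counts limit the precision.

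The GluN3 genes stood at opposite ends. Grin3a (ENSMUSG00000039579.11, chr4:49661611-49845744, minus strand) was at 30.2 TPM in pup 1 and 34.3 TPM in pup 3, averaging 32.2 ± 2.94 (SD, n = 2), on 4857 and 5903 counts. Grin3b (ENSMUSG00000035745.4, chr10:79970715-79977190, plus strand), which is known from motor neurons, was at 0.10 TPM in pup 1 and 0.18 TPM in pup 3 (averaging 0.14 ± 0.0566, SD, n = 2), on 6.07 and 10.5 expected counts. The exact Poisson interval on those counts, rounded to whole numbers, was 2.20 to 13.1 in pup 1 and 4.80 to 18.4 in pup 3, which covers counting error only. The deposited intervals of the posterior mean TPM did not overlap between Grin3a and Grin3b in either pup.

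**Figure D2:**
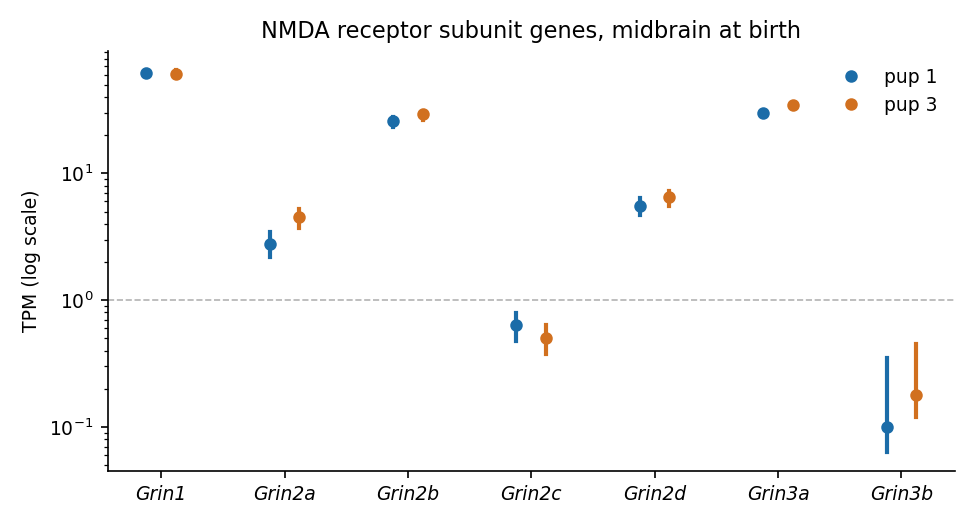
TPM of the 7 NMDA receptor genes on a log scale, with a point for each pup and a line for the deposited credibility interval of its posterior mean TPM; the dashed line marks 1 TPM. Grin1 sits at 61.4 and 61.1 TPM in pup 1 and pup 3, and Grin2c and Grin3b sit below 1 TPM in both.

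Summed over the 7 genes, TPM was 126 in pup 1 and 136 in pup 3. Grin1 held 48.6% of the sum in pup 1 and 44.8% in pup 3 (46.7% ± 2.67, SD, n = 2), the GluN2 genes together 28.7% ± 1.72 and the GluN3 genes 24.6% ± 0.948. Grin1 over the summed GluN2 genes was 1.77 in pup 1 and 1.50 in pup 3, so in each pup the obligatory subunit gene exceeded its GluN2 partners. Against all 6 partners together it was at 0.945 in pup 1 and 0.812 in pup 3, but on the full-length coding transcripts described below it was at 1.32 in pup 1 and 1.08 in pup 3, above their sum. RNA levels do not measure subunit protein.

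Within the GluN2 genes, Grin2b held 74.2% of TPM in pup 1 and 71.9% in pup 3 (73.0% ± 1.64, SD, n = 2). Grin2d held 16.0% in pup 1 and 15.9% in pup 3, the closest of these shares between the pups. Grin2a held 7.95% in pup 1 and 11.0% in pup 3, and Grin2c 1.84% and 1.23% in the same order. By expected counts, not divided by length, the Grin2a share was 3.37% in pup 1 and 4.11% in pup 3. The order Grin2b, Grin2d, Grin2a, Grin2c was the same in both pups.

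Ratios within a library do not depend on its depth, and 11 pairs were compared as log2 ratios of TPM with a pseudocount of 0.1, which understates the ratios of low genes. To be called apart, a pair needed 1 sign in both pups, a mean ratio above 1 and above 3 SD on that scale, and deposited intervals that were separate in each pup. No p is given, since an exact sign-flip test over 2 animals cannot go below 0.5. By that rule 8 of 11 pairs were apart. Grin2b exceeded Grin2d by 2.19 in pup 1 and 2.16 in pup 3 (mean 2.17 ± 0.023, 4.52-fold), and exceeded Grin2c by 5.13 and 5.62 (5.37 ± 0.35). Grin2b exceeded Grin2a by 3.18 in pup 1 and 2.68 in pup 3 (2.93 ± 0.35), a wider spread than that of its ratio to Grin2d.

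Grin3a exceeded Grin3b by 7.24 in pup 1 and 6.94 in pup 3 (7.09 ± 0.21), and exceeded Grin2a by 3.40 and 2.91 (3.15 ± 0.35). Grin1 exceeded Grin2b by 1.25 in pup 1 and 1.06 in pup 3 (1.15 ± 0.14, 2.22-fold). Grin2d exceeded Grin2c by 3.20 ± 0.37, and Grin2a exceeded Grin2c by 1.95 in pup 1 and 2.94 in pup 3 (2.44 ± 0.70). In all 8 of these pairs the gene named first was the higher one in both pups.

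Neighbours in the order that were not apart were Grin1 and Grin3a (0.93 ± 0.14), Grin3a and Grin2b (0.23 ± 0.00052) and Grin2d and Grin2a (0.75 ± 0.33). For each of these pairs the sign was the same in both pups and the intervals did not overlap. The mean was below 1 in each, and for Grin2d over Grin2a it was also below 3 SD.

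The transcripts behind a gene's level did not all carry its full coding sequence. Here a transcript counts as full-length coding where its annotated coding sequence is complete and at least 90% as long as the longest of the gene, a measure chosen after the values were seen. Such transcripts held 100% of Grin2c TPM, 87.5% ± 3.80 of Grin1, 87.5% ± 3.03 of Grin3a and 63.4% ± 2.15 of Grin2d (SD, n = 2 each). They held 41.0% ± 4.74 of Grin2b and 26.3% ± 2.78 of Grin2a, the smallest share of the family. For Grin3b the share was 80.0% in pup 1 and 44.4% in pup 3, on few counts. ENSMUST00000045085.3, the Grin3b transcript of 1003 amino acids, held 79.2% in pup 1 and 46.5% in pup 3, ENSMUST00000149148.3 was listed at 0 in pup 1 and held 53.5% in pup 3, and ENSMUST00000131816.1 held 20.8% in pup 1 and was listed at 0 in pup 3. By TPM the leading transcript of Grin3b thus differed between the pups, as it did for no other member, but on these few counts. By counts ENSMUST00000045085.3 led in both, at 5.57 in pup 1 and 6.74 in pup 3. By posterior mean ENSMUST00000131816.1 led in pup 1 at 41.5% and ENSMUST00000149148.3 in pup 3 at 38.2%.

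**Figure D3:**
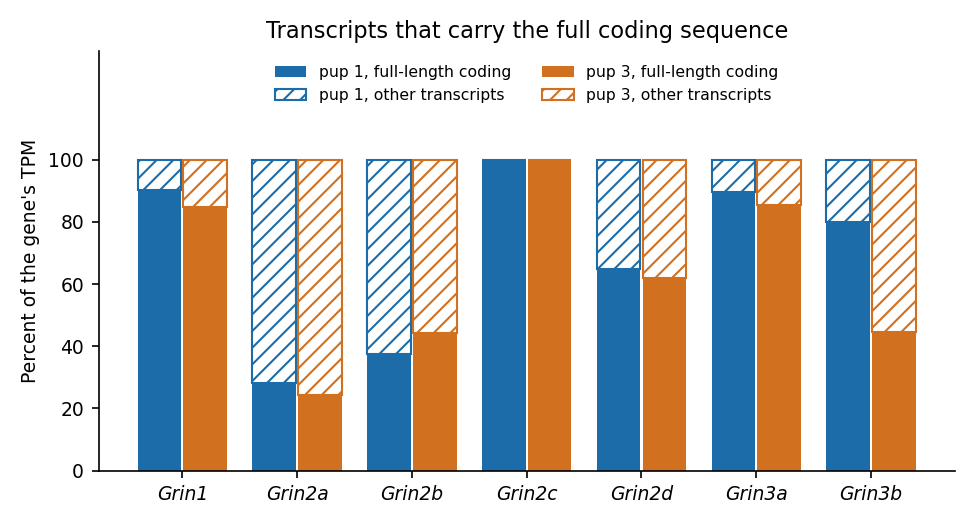
Percent of each gene's TPM in transcripts with the full coding sequence (filled) and in all other transcripts (hatched), with 1 bar for pup 1 and 1 for pup 3 per gene. Grin2a and Grin2b have most of their TPM in other transcripts in both pups, at 26.3% and 41.0% full-length on average.

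For Grin2a the leading transcript was a retained intron of 1099 bases, ENSMUST00000156482.1, with 71.8% of the gene's TPM in pup 1 and 75.7% in pup 3. By counts the order was the other way, since TPM divides by length: the full-length transcript ENSMUST00000115835.3, which encodes 1464 amino acids, drew 85.2 counts in pup 1 and 130 counts in pup 3, against 45.8 and 85.7 for the retained intron. The full-length transcript was at 0.78 TPM in pup 1 and 1.09 TPM in pup 3. GENCODE M21 also lists a Grin2a transcript of 14634 bases with the same coding length, absent from the M4 transcripts of the tables, and its part in the level was not tested.

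Grin2b was led by ENSMUST00000143943.3, a transcript of 703 bases with an incomplete coding sequence, at 41.3% in pup 1 and 38.3% in pup 3. The full-length forms, both of 1482 amino acids, were ENSMUST00000111905.3 (7484 bases) at 25.3% in pup 1 and 31.3% in pup 3, and ENSMUST00000053880.8 (23640 bases) at 12.3% and 13.0%. A transcript of 337 amino acids, ENSMUST00000152012.3, held 16.4% in pup 1 and 14.2% in pup 3. Counts again fell mostly on the full-length forms, at 2835 of 3229 in pup 1 and 3985 of 4416 in pup 3.

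In Grin2d the full-length transcript ENSMUST00000002848.7, of 1323 amino acids, held 64.9% in pup 1 and 61.9% in pup 3. The rest was a transcript of 648 bases, ENSMUST00000146672.1, which GENCODE M21 no longer lists. In Grin2c, ENSMUST00000003351.8 held 100% in pup 1 and 88.8% in pup 3, and ENSMUST00000106554.1 was listed at 0 in pup 1 and held 11.2% in pup 3. Both Grin2c transcripts encode 1239 amino acids.

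Counting only full-length coding transcripts, Grin1 was at 53.6 TPM, Grin3a at 28.2, Grin2b at 11.3, Grin2d at 3.81, Grin2a at 0.935, Grin2c at 0.575 and Grin3b at 0.08 on average. The full-length sums have no intervals of their own, so the calls here kept the deposited intervals over all transcripts. On full-length transcripts Grin3a exceeded Grin2b by 1.47 in pup 1 and 1.17 in pup 3 (1.32 ± 0.22), which made that pair apart under that condition. Grin2d over Grin2a became apart too (1.93 ± 0.20), while Grin2a over Grin2c ended at 0.61 ± 0.50 and was no longer apart. Grin2b over Grin2a was 3.47 in pup 1 and 3.46 in pup 3 on this scale, a narrower spread between the pups than on all transcripts. The Grin2b share of GluN2 TPM was 67.8% ± 2.85, with Grin2d at 23.1% ± 2.11, Grin2a at 5.58% ± 0.394 and Grin2c at 3.55% ± 1.14.

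Grin3a has a variant in its tail, and its extra piece is shown because the long and short forms differ by it alone. The insert is 60 bases (20 codons) at the start of the last exon, exon 9 of 9, at chr4:49665566-49665625 on the minus strand of GRCm38, with capitals for the insert and lower case for 24 spliced bases on each side.
Grin3a insert: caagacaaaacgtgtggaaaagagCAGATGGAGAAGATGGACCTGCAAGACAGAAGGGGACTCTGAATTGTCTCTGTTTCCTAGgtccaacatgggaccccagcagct

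The short form without the insert, ENSMUST00000076674.3 of 1115 amino acids, held 78.3% of Grin3a TPM in pup 1 and 75.2% in pup 3. The long form with it, ENSMUST00000093859.6 of 1135 amino acids, held 11.4% in pup 1 and 10.2% in pup 3. A noncoding transcript, ENSMUST00000131797.1, held 8.69% in pup 1 and 11.7% in pup 3. The short form therefore exceeded both others in each pup, and the SDs were 2.17, 0.856 and 2.12 percentage points (n = 2).

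Grin1 was read mostly without C1 and with the C2′ end. The table held 14 Grin1 transcripts, the 8 coding forms and 6 noncoding ones, which took 9.78% of Grin1 TPM in pup 1 and 15.2% in pup 3. Transcripts with C1 held 10.1% of Grin1 TPM in pup 1 and 10.0% in pup 3 (10.1% ± 0.0736, SD, n = 2). C2′ was carried by 65.5% in pup 1 and 62.1% in pup 3, and C2 by 24.8% and 22.7% in the same order. Over the coding forms alone, C2′ was at 72.5% in pup 1 and 73.2% in pup 3.

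Transcripts with the N1 cassette, which is known to speed deactivation and lower the proton sensitivity of the channel, held 19.1% of Grin1 TPM in pup 1 and 16.4% in pup 3 (17.8% ± 1.92, SD, n = 2). Over the coding forms alone the share was 21.2% in pup 1 and 19.3% in pup 3. These shares divide whole-transcript estimates, and the number of reads on the 63 bases of the cassette is not used here. In both pups most Grin1 RNA was thus assigned to transcripts without N1.

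By form, GluN1-4a, which has neither N1 nor C1 and ends in C2′ (885 amino acids), led with 40.2% in pup 1 and 42.5% in pup 3. GluN1-2a, with neither cassette and the C2 end (901 amino acids), held 20.8% in pup 1 and 15.9% in pup 3, and GluN1-4b, with N1 and C2′ (906 amino acids), held 19.1% and 16.4%. The order of these 3 forms was GluN1-4a first in both pups, while GluN1-2a led GluN1-4b in pup 1 and trailed it in pup 3. GluN1-1a (938 amino acids) held 4.00% in pup 1 and 6.79% in pup 3, and GluN1-3a (922 amino acids) held 6.12% and 3.24%. GluN1-1b, GluN1-2b and GluN1-3b were listed at 0 in both pups. The forms also differ in where the annotated first exon begins. GluN1-4a starts at the first annotated base, GluN1-1a, GluN1-2a and GluN1-3a 67 bases further on, and the b forms 92 bases. The part of these starts in the form shares and the N1 share was not tested.

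Which forms carried N1 depended on the estimate. By the authors' posterior means, N1 transcripts together held 19.4% in pup 1 and 17.4% in pup 3, close to the values above, but GluN1-2b held 3.53% and 3.17%, GluN1-1b 1.69% and 2.76%, and GluN1-3b 2.22% and 0.98%. GluN1-4b was then at 11.9% in pup 1 and 10.5% in pup 3. N1 within the GluN1-4 pair of forms was at 32.2% in pup 1 and 27.9% in pup 3 by maximum likelihood, and at 21.3% and 18.9% by posterior mean. Within the GluN1-2 pair it was listed at 0 in both pups by maximum likelihood, and at 17.4% and 19.7% by posterior mean.

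**Figure D4:**
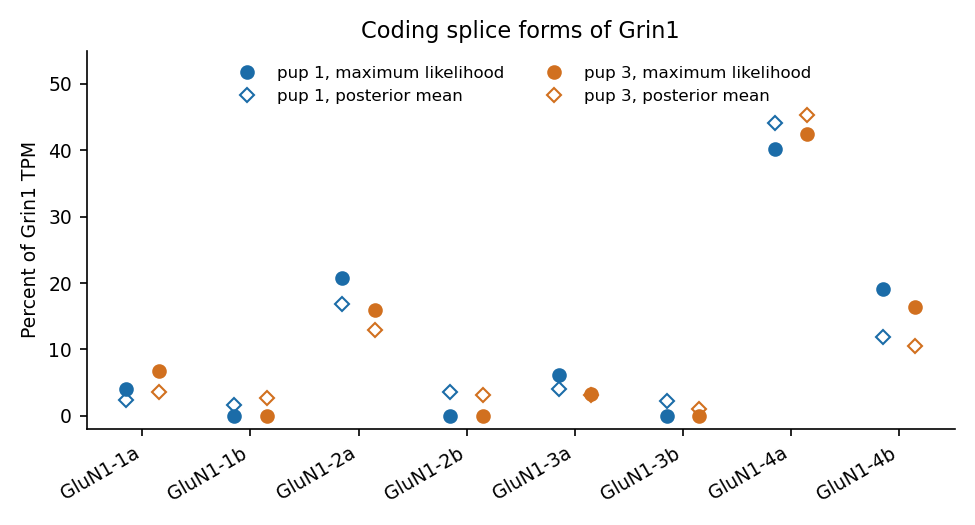
Percent of Grin1 TPM in each of the 8 coding forms, with filled circles for the maximum-likelihood shares and open diamonds for the posterior-mean shares of each pup. GluN1-4a leads at 40.2% in pup 1 and 42.5% in pup 3, and forms 1b, 2b and 3b are at 0 by maximum likelihood and above 0 by posterior mean.

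Between the pups, no member differed 2-fold among those with enough counts. The difference was taken as log2 of TPM plus 0.1, pup 1 minus pup 3, for genes with a mean expected count of at least 100, a filter that 5 of the 7 members passed, and a gene was called at a size of 1 or more. None of the 5 was called, beside 0.315% of all genes tested (42 of 13318). This count is near the background and says nothing particular about the members. Grin1 was at 0.01, Grin3a at -0.19, Grin2b at -0.19, Grin2d at -0.22 and Grin2a at -0.68, so the 4 partner genes had negative values and Grin1 was close to 0. For Grin2b the value was -0.30 with edgeR's TMM scaling of counts and -0.42 on the full-length coding transcripts, larger in size than by TPM. The median size over all tested genes was 0.11, with a median difference of -0.018.

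Grin2a was the member with the largest of these differences. Among the 2321 genes at a mean count of 100 to 300, the median size was 0.197 and the 90th percentile 0.505, and 95.7% had a smaller difference than Grin2a. Grin2a was singled out here as the largest of the 5 members, so this place among single genes is not a test of it. The Grin2a difference came to -0.57 with TMM scaling and to -0.44 on the full-length transcripts alone, where Grin2b was close to it. Of the forebrain markers 2 of the 5 tested were called, both higher in pup 3, and the median difference of the tested genes was -0.98. Of the hypothalamic markers 4 of 6 were called, all higher in pup 3, with a median of -1.33. On the cerebellar list none of the 4 tested was called, and their median was -0.71, with Zic2 at -0.99, Zic1 at -0.97, Cbln1 at -0.46 and Barhl1 at -0.0046. None of the 4 dopaminergic markers was called, and all were on the other side of 0, with a median of 0.22. Slc6a3 was at 0.76 and Th at 0.42, but Ddc at 0.027 and Slc18a2 at 0.011. Medians were also positive for oligodendrocyte precursors (0.24), astrocytes and radial glia (0.22), endothelium (0.19) and microglia (0.15). They were nearer 0 for neurons (-0.013), GABAergic neurons (0.015), glutamatergic neurons (0.030, 1 gene tested) and midbrain (-0.026). The part of these markers in the Grin2a value was not tested. With 1 library for each pup, the difference has no replicate check.

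**Figure D5:**
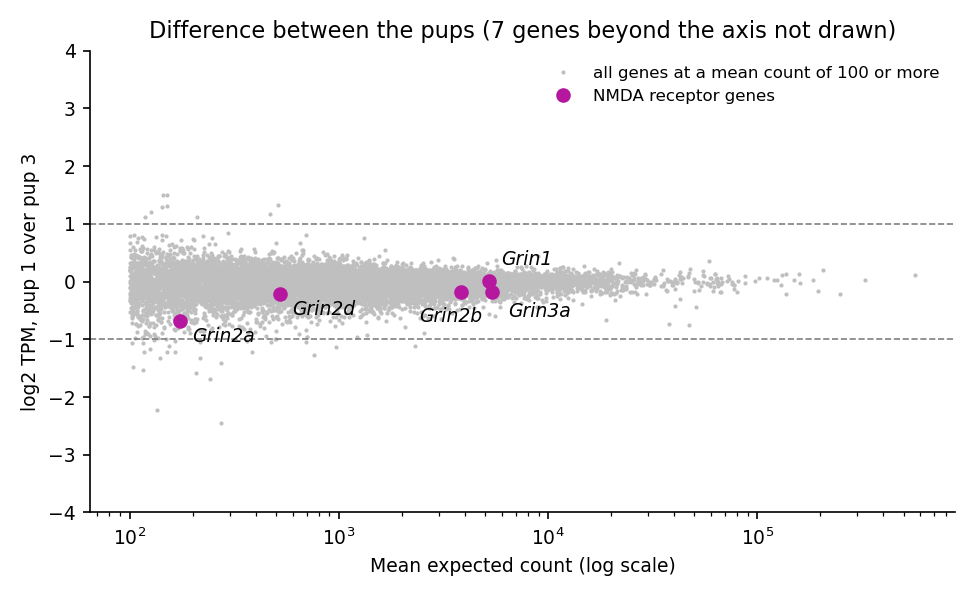
Difference in log2 TPM, pup 1 over pup 3, against the mean expected count (log scale) for 13318 genes, with the 5 NMDA receptor genes that passed the count filter in magenta and dashed lines at a size of 1. Grin2a lies at -0.68 and the other 4 between -0.22 and 0.01; 7 genes lie beyond the axis limit of 4.

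NMDA receptor genes held 27.3% ± 0.334 of the summed TPM of the NMDA, AMPA, kainate and delta receptor genes (SD, n = 2), with 27.5% in pup 1 and 27.0% in pup 3. The AMPA receptor genes, which carry fast transmission, held 54.2% ± 0.593, the kainate receptor genes 14.5% ± 0.512 and the delta receptor genes 4.02% ± 0.253. Gria2, the AMPA subunit gene that limits calcium entry, was alone at 170 ± 9.24 TPM, above the 131 ± 7.12 TPM of the whole NMDA family. These values cover all transcripts. On full-length coding transcripts the NMDA sum was 97.2 TPM in pup 1 and 99.8 in pup 3, and the other families were not read that way. Gria1 was at 48.3 ± 5.85 and Gria4 at 28.1 ± 3.30 TPM, and the lowest of the other receptors, Grik3, at 2.48 ± 0.495.

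Genes on lists drawn up around the receptor were nearly all present. The lists also hold other glutamate receptor genes, promoter factors and splicing factors. Of 94 genes in 9 lists, 92 reached 1 TPM in each pup, beside 62.1% of all protein-coding genes. The lists were chosen with earlier results of these data known, so the higher share is not a result about them. Of the 92 with enough counts none was called between the pups by size, beside 0.315% of all genes tested, so this count is near the background and says nothing particular about the lists. Values of single genes below are means with SD over the 2 pups. The exceptions were Slc6a5 and Dao, both on the list of co-agonist supply. The median of all protein-coding genes was 4.52 TPM in pup 1 and 4.70 in pup 3.

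Among scaffolds and PDZ partners, 10 of 10 reached 1 TPM, and the list had a median of 13.2 TPM in pup 1 and 13.3 in pup 3. They were led by Lin7c (177 ± 1.17 TPM), Cask (65.5 ± 3.03) and Lin7b (59.1 ± 5.94), members of the complex that carries GluN2B vesicles, and the lowest was Dlg3, a synaptic scaffold, at 2.71 ± 0.368. Transport and endocytosis genes (9 of 9, median 109 TPM in pup 1 and 107 in pup 3) were led by the clathrin adaptor gene Ap2m1 (932 ± 21.1), the recycling GTPase gene Rab11a (383 ± 10.1) and Nsf (225 ± 0.0283). Lowest was Kif17, a dendritic motor of GluN2B, at 5.24 ± 0.148. The lists' medians were close between the pups in both cases.

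Kinases and phosphatases that act on the receptor (19 of 19) had a median of 84.2 TPM in pup 1 and 87.8 in pup 3. Ppp1ca, a protein phosphatase, was at 433 ± 11.7, Csnk2b, a subunit of the kinase CK2, at 283 ± 4.08 and Prkaca, a kinase activated by cAMP, at 217 ± 4.00, with Ptk2b lowest at 2.07 ± 0.283. Of the co-agonist genes 10 of 12 reached 1 TPM, and the list had a median of 31.1 TPM in pup 1 and 26.6 in pup 3. The serine synthesis genes Phgdh (136 ± 13.7) and Psat1 (61.5 ± 4.96) and the amino acid transporter gene Slc1a4 (62.5 ± 3.78) led that list. Dao, the enzyme that degrades D-serine, was lowest at 0.07 ± 0.0141, with 3 counts in pup 1 and 2 counts in pup 3.

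Calcium effectors (10 of 10, median 14.2 TPM in pup 1 and 16.8 in pup 3) included the calmodulin genes Calm2 (2685 ± 5.25) and Calm3 (386 ± 3.87). Membrane partners (8 of 8, median 20.5 TPM in pup 1 and 21.96 in pup 3) ran from Ephb1 (58.3 ± 1.01), Grm5 (45.1 ± 0.290) and Nlgn1 (34.2 ± 0.516) to the dopamine receptor gene Drd1 (1.67 ± 0.0566). Every gene of both lists was thus above the 1 TPM mark in each pup.

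Factors reported at subunit gene promoters (5 of 5) had a median of 2.39 TPM in pup 1 and 2.71 in pup 3. Ezh2, a Polycomb methyltransferase, was at 17.8 ± 1.82, Nrf1 at 17.4 ± 0.764 and Rest, a repressor of neuronal genes, at 2.38 ± 0.0212, with its corepressor gene Rcor1 lowest at 2.22 ± 0.113. Splicing factors reported for Grin1 (10 of 10, median 71.6 TPM in pup 1 and 77.8 in pup 3) were led by Hnrnpa1 (464 ± 36.8), Hnrnph1 (227 ± 3.34) and Rbfox1 (180 ± 13.3), and Nova2 was lowest at 10.3 ± 1.05. No link between these levels and the Grin1 shares can be tested with 2 libraries.

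Other genes overlap exons of 5 members on the opposite strand, and the sources used here do not say if strand was used in counting, so reads there cannot be told apart with certainty. Beside Grin1 the antisense gene Grin1os held 27.5 counts in pup 1 and 29.7 counts in pup 3, and the small RNA gene beside Grin2c held none. Beside Grin2b, Gm14329 had 4.25 and 5.38 counts and Gm26653 had 10 and 4. These counts were small next to those of Grin1 and Grin2b. Beside Grin2d lay Kdelr1, with 1329 counts in pup 1 and 1473 in pup 3, and beside Grin3b lay Tmem259, with 1016 and 1241. Both neighbours had more counts than the member, so the levels of Grin2d and above all of Grin3b are less certain.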

How the data were processed

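Total RNA of 2 newborn mouse midbrains was measured by sequencing, with RNA extracted by the mirVana method from 10 ng of starting material per the labels' protocols. The authors deposited a gene and a transcript table per library, built on mm10 with GENCODE M4 per the deposited text record; the quantifier is not given in the sources used here. Expected counts deposited by the authors are estimated reads per feature. Deposited TPM values are those estimates per effective length, scaled to a fixed sum. The deposited transcript tables give the percent of the gene's TPM held by each transcript. Posterior means and interval bounds were deposited too, without an interval level. How short transcripts weigh in TPM follows from the division by length: a few counts on a short transcript give a high TPM.

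Symbols, exons and sequences came from GENCODE M21, which matched 33 of the 34 transcripts of the members, 29 with the same length. The 7 members and all lists were chosen with earlier results of these data known. All members were named, as were the 3 highest and the lowest gene of each list by mean TPM, except on the calcium effector list, where some are not reported here, and transcripts at a mean of 5% or more of their gene. No p is given, since an exact sign-flip test over 2 animals cannot go below 0.5. For the scaling factors of edgeR 4.0.16 and DESeq2 1.42.0, used as alternatives only, expected counts were first rounded to whole numbers. The steps used Python 3.11.15, numpy 2.4.6, pandas 2.3.3, matplotlib 3.10.9 and R 4.3.3. As a check of the calculation alone, the pup difference was run on simulated data with planted changes. That run gives no measure of the variation between pups. Exact Poisson intervals are at 95%, were taken on expected counts rounded to whole numbers, and do not cover more than counting error. PCR copies of 1 molecule were not told apart by molecular identifiers.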

Additional observations from a re-analysis of the deposited data

How the results depend on the processing

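No paired analysis was possible because there is 1 group. Of 11 pairs, 8 were apart on TPM, 7 on expected counts and 9 on full-length coding transcripts (an alternative chosen after seeing the data). These are totals, and the pairs were not all the same ones. On every scale the interval condition used the deposited intervals over all transcripts. With either pup left out, 8 to 9 pairs passed on size and intervals alone, since 1 pup gives no SD. The Grin2b share of GluN2 was 73.0% by TPM, 83.5% by expected counts not divided by length, 67.8% on full-length transcripts and 71.9 to 74.2% without either pup. By expected counts Grin1 over Grin3a turned to -0.037, Grin1 over Grin2b was 0.47 and no longer apart, Grin2a over Grin2c 1.54 and no longer apart, and Grin2d over Grin2a 1.63 and apart. Over coding forms alone, N1 was at 20.3%, C1 at 11.5%, C2 at 27.1% and C2′ at 72.9%; by posterior mean C1 was at 10.4% and C2′ at 61.1%. Leaving out a pup gave 16.4 to 19.1% for N1, 10.0 to 10.1% for C1, 22.7 to 24.8% for C2 and 62.1 to 65.5% for C2′. Leading transcripts with the full coding sequence numbered 5 of 7, or 4 to 5 without either pup, and members at 1 TPM 5, or 4 by full-length transcripts, which left out Grin2a. Genes called between the pups numbered 42, and 388 of 17831 at a mean count of 10, 2490 of 43346 with no filter and 27 with a pseudocount of 1. Lower filters add genes with few counts. Depth limits Grin2c and Grin3b, which had at most 62 counts in a pup.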
